A study of Mus musculus with 8 samples.

Results

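The genes described here are 10 targets of the transcription factor ATF4 that serve amino acid synthesis, mitochondrial folate metabolism or amino acid transport. They are Asns, Phgdh, Psat1, Psph, Shmt2, Mthfd2, Aldh1l2, Slc7a11, Slc7a5 and Slc3a2, chosen by name from the 33212 genes of the deposited count table. All 10 were found there, and all 10 were among the 15291 genes with enough counts to be tested. Liver RNA was sequenced from 4 Nnmt LKO and 4 Control mice, all male C57BL/6 animals kept for 8 weeks on a diet without methionine and choline (MCD diet). Nnmt encodes nicotinamide N-methyltransferase, which uses S-adenosylmethionine to methylate nicotinamide. Nnmt LKO mice were Alb-Cre::Nnmt flox/flox, and Control mice, labelled WT, were Nnmt flox/flox animals according to the study, in which no Cre is named. The albumin promoter is used to direct Cre to hepatocytes, and the paper calls the knockout hepatocyte-specific. Other liver cells would then keep an intact Nnmt gene, which was not tested here. Effects of Cre and of the deletion cannot be told apart. Age was not given for these mice. The question was how deleting Nnmt in hepatocytes alters liver transcripts under this diet.

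ATF4 is translated when eIF2α is phosphorylated, as happens when amino acids run short or proteins misfold, and it then switches on genes for amino acid synthesis and transport, usually as a dimer with a C/EBP protein. Serine is built from a glycolytic intermediate by PHGDH, PSAT1 and PSPH, and mitochondrial SHMT2, MTHFD2 and ALDH1L2 pass its side-chain carbon along folate. In liver, Phgdh is known for low expression on protein-rich diets.

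The 8 count columns name the genotype and not the mouse, and the letters a to d used here only tell the libraries of a group apart. Total counts were between 75020072 and 87934362 per library. Levels are given as CPM (counts scaled to the library total after TMM normalization), with SD over 4 libraries. The TMM factor of Nnmt LKO library a was 1.21, whereas the other 7 libraries had factors between 0.876 and 1.06. Nnmt itself (ENSMUSG00000032271, chromosome 9 from 48591877 to 48605153) was at 31.8, 44.8, 68.9 and 83.0 CPM in Nnmt LKO libraries a to d and at 112, 224, 134 and 84.9 CPM in Control libraries a to d. Every Nnmt LKO library was below every Control library (p = 0.0286 by a two-sided exact permutation test, which can give no smaller p for 4 against 4), although library d of each group came close to the other. Its log2 fold change was -1.28 (SE 0.33, unadjusted p = 0.00256, adjusted p = 0.123 by edgeR). Unless another test is named, p-values are from the quasi-likelihood test of edgeR, and adjusted ones follow Benjamini and Hochberg over all tested genes. In these whole-liver samples, fewer cells of a type and less RNA per cell cannot be told apart.

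Of the 10 genes, 9 had a lower fitted level in Nnmt LKO than in Control, where 47.7% of all tested genes did, and Phgdh was the exception. The median log2 fold change was -0.41 over the 10 genes and 0.017 over all tested genes. At an adjusted p under 0.05, edgeR called none of the 10 (0 of 10, beside 0.137% of all tested genes called lower). At an unadjusted p under 0.05, 3 were lower (Asns, Slc3a2 and Psat1) and 0 higher, beside 7.13% and 5.45% of all tested genes in those directions. For 2 of the 10, Psat1 and Slc3a2, all Nnmt LKO libraries lay below all Control libraries, which held for 4.81% of all tested genes. DESeq2's Wald test placed 2 of the 10, Asns and Slc3a2, under an adjusted p of 0.05, beside 1.94% of its tested genes called lower. The members were chosen with earlier results known, so these shares describe them and do not test them as a list.

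**Figure D1:**
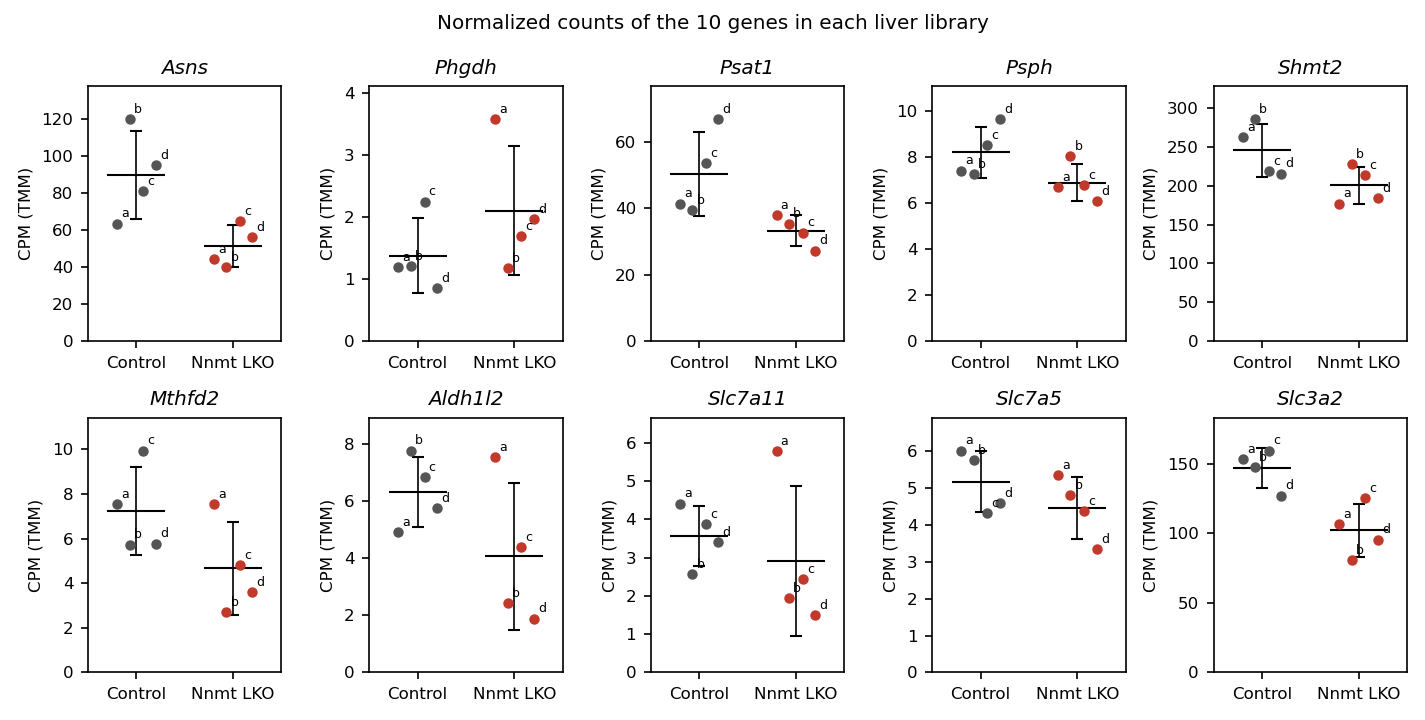
Normalized counts (CPM after TMM scaling, linear axis from 0) of the 10 genes in each library, with letters for the libraries, horizontal lines for group means and bars for the SD over 4 libraries. The Nnmt LKO libraries of Psat1 and Slc3a2 lie below all Control libraries, and Nnmt LKO library a is the highest of its group for Phgdh, Mthfd2, Aldh1l2 and Slc7a11, among others.

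Asns (ENSMUSG00000029752, chromosome 6 from 7675169 to 7693254) encodes asparagine synthetase, which makes asparagine from aspartate with the amide nitrogen of glutamine. It was at 44.1, 39.9, 64.7 and 56.1 CPM in Nnmt LKO libraries a to d and at 63.4, 120, 81.0 and 95.2 CPM in Control libraries a to d. The groups met only where Nnmt LKO library c stood just above Control library a, and Control library b was the highest of all. The means were 51.2 ± 11.3 CPM in Nnmt LKO and 89.9 ± 23.9 CPM in Control (SD, 4 libraries each). On the log2 scale the difference was -0.81 (SE 0.20, 95% interval -1.26 to -0.36, adjusted p = 0.116 by edgeR). DESeq2 gave -0.81 with an adjusted p of 0.00905, the lowest of 13 alternatives, over which the adjusted p ran up to 0.271 and the log2 fold change from -0.94 to -0.63.

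The 3 steps of serine synthesis are given in their order, and differences between them were not tested. Phgdh (ENSMUSG00000053398, chromosome 3 from 98313170 to 98339990) encodes the dehydrogenase that opens the pathway by oxidizing 3-phosphoglycerate. It was at 3.58, 1.18, 1.70 and 1.97 CPM in Nnmt LKO libraries a to d and at 1.19, 1.20, 2.25 and 0.856 CPM in Control libraries a to d. Nnmt LKO library a was the highest of all, and the remaining values of both groups were intermixed. On the log2 scale Nnmt LKO was above Control by 0.61 (SE 0.38, 95% interval -0.23 to 1.46, adjusted p = 0.539 by edgeR), and it was 0.23 without Nnmt LKO library a. Without Control library c it was 0.96 (unadjusted p = 0.0296, adjusted p = 0.307), and over 13 alternatives the adjusted p ran from 0.307 to 0.882.

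Psat1 (ENSMUSG00000024640, chromosome 19 from 15904678 to 15947337) encodes the aminotransferase that adds the amino group from glutamate. Its levels were 37.9, 35.4, 32.6 and 27.2 CPM in Nnmt LKO libraries a to d and 41.4, 39.4, 53.7 and 66.9 CPM in Control libraries a to d. The groups did not overlap, though the gap between Nnmt LKO library a and Control library b was small, and the Control libraries were the more widely spread. The means were 33.3 ± 4.56 CPM in Nnmt LKO and 50.3 ± 12.7 CPM in Control (two-sided exact permutation test on log2 CPM, p = 0.0286). The log2 fold change was -0.60 (SE 0.17, 95% interval -0.98 to -0.22, adjusted p = 0.173 by edgeR), and DESeq2 gave an adjusted p of 0.0506, where all 13 alternatives ran from 0.0231 to 0.486.

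Psph (ENSMUSG00000029446, chromosome 5 from 129765558 to 129787449), whose product removes the phosphate in the last step, was between 6.08 and 8.04 CPM in Nnmt LKO and between 7.26 and 9.66 CPM in Control. Its log2 fold change was -0.25 (SE 0.15, 95% interval -0.58 to 0.07, adjusted p = 0.512 by edgeR). The ranges overlapped, and its unadjusted p was above 0.05 under all 13 alternatives. In the annotation 452 of its 4329 exonic bases lie opposite exons of Cct6a, and reads of such a pair cannot be separated unless the counting used strand, which is not given in the sources used here.

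Shmt2 (ENSMUSG00000025403, chromosome 10 from 127517123 to 127522444) encodes the mitochondrial serine hydroxymethyltransferase, which splits serine into glycine and a one-carbon unit on tetrahydrofolate. It was at 177, 228, 214 and 184 CPM in Nnmt LKO libraries a to d and at 263, 286, 219 and 216 CPM in Control libraries a to d. Nnmt LKO library b alone reached into the range of Control. The log2 fold change was -0.29 (SE 0.14, 95% interval -0.59 to 0.01, unadjusted p = 0.0531, adjusted p = 0.403 by edgeR). Its unadjusted p was under 0.05 in 5 of 13 alternatives, among them without Nnmt LKO library b (-0.36), Control library c (-0.34) or Control library d (-0.35). It was above 0.05 and the value nearer 0 without Control library b (-0.20) or a (-0.24) or Nnmt LKO library a (-0.24), and its adjusted p ran from 0.311 to 0.751 over them.

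Mthfd2 (ENSMUSG00000005667, chromosome 6 from 83305691 to 83325908) encodes a mitochondrial methylenetetrahydrofolate dehydrogenase and cyclohydrolase that many adult tissues express weakly. Its levels were 7.54, 2.71, 4.81 and 3.60 CPM in Nnmt LKO libraries a to d and 7.55, 5.73, 9.94 and 5.78 CPM in Control libraries a to d. Nnmt LKO libraries b, c and d were below all of Control, and library a was level with Control library a. With all libraries the log2 fold change was -0.63 (SE 0.30, 95% interval -1.29 to 0.02, unadjusted p = 0.0570, adjusted p = 0.410 by edgeR). Without Nnmt LKO library a it was -0.97 (SE 0.25, unadjusted p = 0.00260, adjusted p = 0.108), and without Control library d it was -0.73 (unadjusted p = 0.0485). It was nearer 0 without Control library c (-0.44), Nnmt LKO library b (-0.45) or Nnmt LKO library d (-0.53), each with an unadjusted p above 0.05.

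Aldh1l2 (ENSMUSG00000020256, chromosome 10 from 83487450 to 83534140) encodes the mitochondrial 10-formyltetrahydrofolate dehydrogenase, which releases the carbon as carbon dioxide and yields NADPH. It was at 7.54, 2.42, 4.38 and 1.88 CPM in Nnmt LKO libraries a to d and at 4.91, 7.75, 6.82 and 5.76 CPM in Control libraries a to d. The same split was seen, with library a of Nnmt LKO inside the range of Control and the other 3 below it. The log2 fold change was -0.63 (SE 0.37, 95% interval -1.45 to 0.18, adjusted p = 0.510 by edgeR) with all libraries and -1.12 (SE 0.28, unadjusted p = 0.00219, adjusted p = 0.101) without Nnmt LKO library a. It was nearer 0 without Nnmt LKO library d (-0.40) or b (-0.45). Exons of D10Wsu102e lie opposite 1056 of its 7503 exonic bases, and those of Ndufa4l2 opposite 32 of the 3109 of Shmt2.

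Slc7a11 (ENSMUSG00000027737, chromosome 3 from 49892526 to 50443614) encodes xCT, the light chain of the exchanger that takes up cystine for glutamate. It was at 5.80, 1.95, 2.45 and 1.49 CPM in Nnmt LKO libraries a to d and at 4.41, 2.57, 3.87 and 3.41 CPM in Control libraries a to d. Nnmt LKO library a was the highest of all 8, and the other 3 Nnmt LKO libraries were the lowest. With all libraries it had a log2 fold change of -0.29 (SE 0.38, 95% interval -1.12 to 0.54, adjusted p = 0.793 by edgeR), and without library a of Nnmt LKO it was -0.86 (SE 0.25, unadjusted p = 0.00522, adjusted p = 0.153). The value was nearer 0 without Nnmt LKO library d (-0.070), Nnmt LKO library b (-0.13) or Control library a (-0.14), among others. It was farther from 0 without Control library b (-0.40) or Control library d (-0.31).

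Slc7a5 (ENSMUSG00000040010, chromosome 8 from 121881150 to 121907694) encodes LAT1, which exchanges large neutral amino acids such as leucine. Its levels were between 3.35 and 5.35 CPM in Nnmt LKO and between 4.33 and 6.02 CPM in Control, with wide overlap. On the log2 scale the difference was -0.21 (SE 0.19, 95% interval -0.63 to 0.20, adjusted p = 0.684 by edgeR). With a library left out it ran from -0.31 to -0.096, the latter without Nnmt LKO library d, and it was -0.11 without Control library a. Like Psph, it had no unadjusted p under 0.05 in any of 13 alternatives.

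Slc3a2 (ENSMUSG00000010095, chromosome 19 from 8706882 to 8723369) encodes 4F2hc (CD98), the heavy chain that pairs with xCT, LAT1 and other light chains and brings them to the cell surface. It was at 106, 80.9, 126 and 95.5 CPM in Nnmt LKO libraries a to d and at 154, 148, 159 and 127 CPM in Control libraries a to d. The groups did not overlap, but Nnmt LKO library c and Control library d almost touched. The means were 102 ± 18.8 CPM in Nnmt LKO and 147 ± 14.1 CPM in Control (two-sided exact permutation test on log2 CPM, p = 0.0286). The log2 fold change was -0.53 (SE 0.14, 95% interval -0.84 to -0.21, adjusted p = 0.142 by edgeR). DESeq2's adjusted p was 0.0280, the lowest of 13 alternatives, which reached 0.424.

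**Figure D2:**
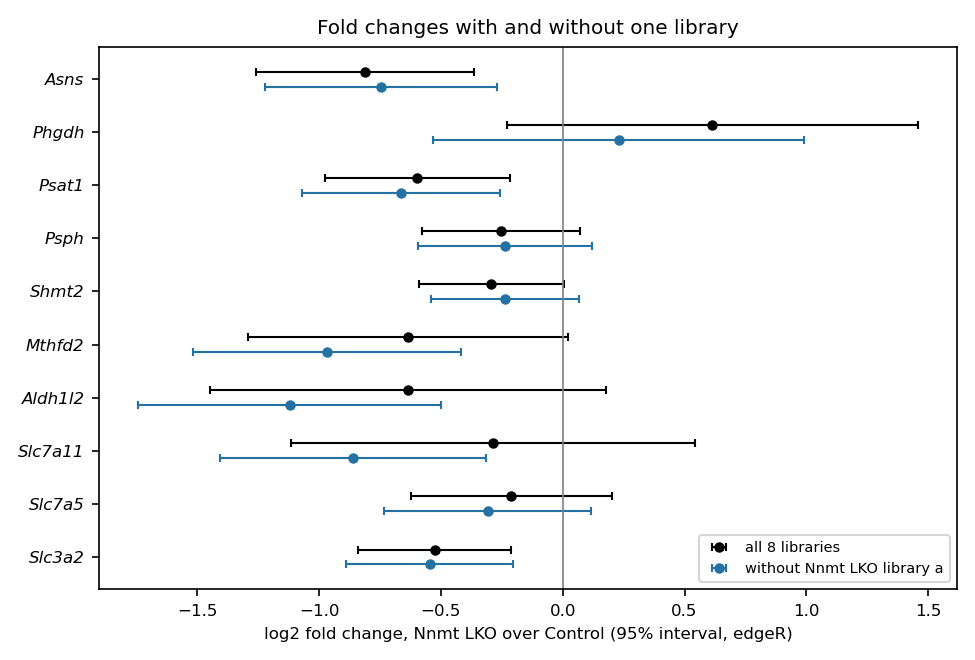
Log2 fold changes of Nnmt LKO over Control from edgeR for the 10 genes (points) with 95% intervals (bars), fitted to all 8 libraries (black) and without Nnmt LKO library a (blue). The intervals of Mthfd2, Aldh1l2 and Slc7a11 include 0 with all libraries and lie below 0 without that library.

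Levels between genes were compared per kilobase of exon. In Control, Shmt2 was the most abundant of the 10, at 79.1 ± 11.0 CPM per kilobase. Slc3a2 at 41.7 ± 3.99 and Asns at 32.9 ± 8.73 CPM per kilobase followed, with overlapping spreads. Psat1 was at 11.8 ± 2.98 CPM per kilobase, and every other member was far lower. Of these, Mthfd2 at 2.08 ± 0.569 and Psph at 1.90 ± 0.257 could not be separated, Slc7a5 had 1.40 ± 0.226, Aldh1l2 0.841 ± 0.165 and Phgdh 0.553 ± 0.243, and Slc7a11 came last at 0.256 ± 0.0559 CPM per kilobase. The genes whose values split within Nnmt LKO (Phgdh, Mthfd2, Aldh1l2 and Slc7a11) were thus among those of low level per length.

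The 10 genes did not vary in step within a group. Nnmt LKO library a had the highest value of its group for 6 of the 10 (Phgdh, Psat1, Mthfd2, Aldh1l2, Slc7a11 and Slc7a5) and the lowest for 1 (Shmt2). Library d had the lowest for 5 and the highest for 0, and library b the lowest for 4 and the highest for 2. In Control, each library had the highest value for 2 or 3 of the 10 genes. Averaged over the 10 genes, log2 CPM relative to each gene's mean over 8 libraries was 0.20, -0.43, -0.11 and -0.48 in Nnmt LKO libraries a to d and 0.16, 0.19, 0.33 and 0.13 in Control libraries a to d. Only library a of Nnmt LKO was thus within the Control range on this average. By the median over the 10 genes, however, library a was at 0.038, below the Control range of 0.126 to 0.377.

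Without Nnmt LKO library a, 6 of the 10 genes were lower at an unadjusted p under 0.05 by edgeR (Asns, Psat1, Mthfd2, Aldh1l2, Slc7a11 and Slc3a2), beside 7.42% of all genes tested in that fit. Then 5 had groups that did not overlap (the same genes except Asns), beside 7.43% of all genes tested in that fit, the median log2 fold change was -0.61, and edgeR called 0 at an adjusted p under 0.05. With DESeq2 and without that library, a combination chosen after the data were seen, 5 were lower at an adjusted p under 0.05 (Asns, Psat1, Mthfd2, Aldh1l2 and Slc3a2), beside 1.89% of the genes tested there. The adjusted p was then 0.00585 for Aldh1l2 and 0.0108 for Mthfd2, the lowest over 13 alternatives, which reached 0.763 and 0.727.

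Library a of Nnmt LKO also stood apart in summed markers of other liver cells. The 10 stellate cell and fibroblast markers (most abundant gene Dcn) summed to 976, 554, 501 and 545 CPM in Nnmt LKO libraries a to d and to 386, 405, 601 and 592 CPM in Control libraries a to d, and 9 of the 10 were highest of Nnmt LKO in library a. The 10 macrophage markers (most abundant gene Lyz2) summed to 1302, 800, 759 and 786 CPM in Nnmt LKO and to 560, 672, 781 and 1214 CPM in Control libraries a to d. Of these, 6 were highest of Nnmt LKO in library a, where Lyz2 was at 527 CPM against 194 to 216 CPM in libraries b to d, whereas the Kupffer cell marker Clec4f was lowest there, at 96.1 CPM against 109 to 118 CPM. Control library d was high as well for summed macrophage markers, and it was below the Control mean for Phgdh, Mthfd2, Aldh1l2 and Slc7a11. Control library c was above the Control mean for these same genes. It had the highest Control sums of stellate cell (close to library d), bile duct and dividing cell markers, and the lowest of hepatocyte markers. The 8 markers of dividing cells (most abundant gene Pcna) summed to 88.0, 51.8, 37.4 and 51.7 CPM in Nnmt LKO and to 54.8, 50.7, 71.4 and 59.6 CPM in Control libraries a to d, and all 8 were highest of Nnmt LKO in library a.

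The 8 bile duct markers (most abundant gene Spp1) summed to 301, 117, 106 and 192 CPM in Nnmt LKO and to 71.4, 84.1, 187 and 113 CPM in Control libraries a to d, with 7 of the 8 highest of Nnmt LKO in library a. The 10 hepatocyte markers, with Alb the most abundant, summed to 70184 CPM in Nnmt LKO library a and to between 109987 and 124602 CPM in its other libraries, against 86288 to 132460 CPM in Control, and all 10 were lowest of Nnmt LKO in library a. Library a was thus the highest of all for bile duct and the lowest for hepatocyte markers. Endothelial markers (8 genes, most abundant Eng) ran from 277 to 332 CPM in Nnmt LKO and from 236 to 401 CPM in Control. Lymphocyte markers (10 genes, most abundant Ptprc) ran from 12.4 to 21.1 CPM and from 8.09 to 15.8 CPM, with 2 of the 10 highest of Nnmt LKO in library a and 2 lowest there, and neutrophil markers (6 genes, most abundant S100a9, with Ly6g at 0) from 5.28 to 15.6 CPM and from 5.56 to 14.5 CPM, with 4 of the 6 highest there. No other marker was at 0 in all libraries. Between the groups, all 10 lymphocyte markers had higher fitted levels in Nnmt LKO, with a median log2 fold change of 0.61, and 0.56 without library a. Of them 2 (Cd8a and Cd3g) were higher at an unadjusted p under 0.05, beside 5.45% of all tested genes, and 3 (with Cd79a) had no overlap between groups, beside 3.34%. All 10 stellate cell markers had higher fitted levels too, with a median of 0.37, and 3 (Dcn, Lrat and Reln) were higher at an unadjusted p under 0.05. Without library a, their median was -0.13 and 0 were higher at that level. In that fit 4 of the 10 hepatocyte markers were higher (Apob, Cps1, Tat and Hnf4a) and 1 lower (Cyp2e1) at an unadjusted p under 0.05, beside 5.84% and 7.42% of all genes tested there, while with all libraries 0 were higher and 1 lower. All 8 markers of dividing cells then had lower fitted levels, with a median of -0.36 (0.13 with all libraries), and 1 (Mcm5) was lower at that level, as it was with all libraries. Medians without library a were 0.087 for macrophage, 0.040 for bile duct and -0.41 for the 4 tested neutrophil markers. The adjusted p by edgeR was above 0.05 for each of these markers. The part of these cells in the values of Phgdh, Mthfd2, Aldh1l2 and Slc7a11 was not tested.

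**Figure D3:**
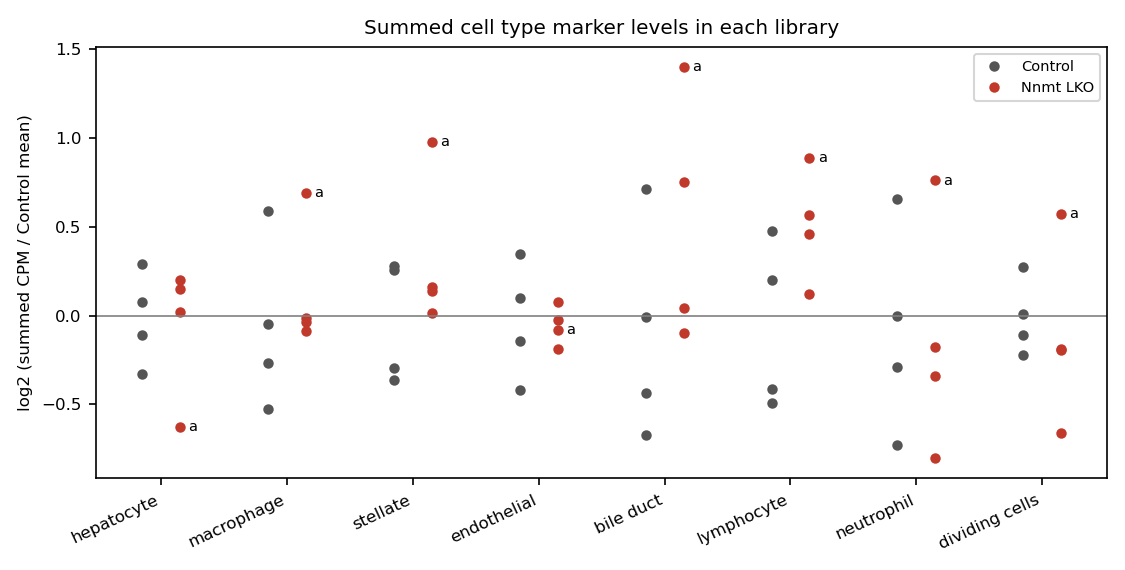
Summed CPM of the markers of each cell type in each library, as log2 of the ratio to the Control mean, for Control (grey) and Nnmt LKO (red) libraries, with Nnmt LKO library a lettered. Library a is the highest of all 8 for stellate, macrophage, bile duct, lymphocyte, neutrophil and dividing cell sums and the lowest for the hepatocyte sum, although single macrophage and lymphocyte markers were not all highest there.

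Partners of the members were set beside them. The light chains that can pair with 4F2hc besides LAT1 and xCT are encoded by Slc7a6 and Slc7a7 (y+LAT2 and y+LAT1), Slc7a8 (LAT2) and Slc7a10 (Asc-1), and Slc7a10 had 0 counts in all libraries. Log2 fold changes were 0.041 for Slc7a6, 0.26 for Slc7a7 and 0.12 for Slc7a8, with adjusted p of 0.977, 0.699 and 0.894 by edgeR. Without Nnmt LKO library a these values were -0.52, -0.029 and -0.22, so that the direction of Slc7a7 and Slc7a8 rested on that library, while Slc7a6 also turned without Control library a (-0.050) or b (-0.079). Per kilobase of exon, Slc3a2 stood at 3.02, 3.77, 7.03 and 5.96 times the summed light chains in Nnmt LKO libraries a to d and at 7.70, 7.30, 8.30 and 4.70 times in Control libraries a to d. These ratios, chosen after the data were seen, overlapped between the groups.

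Among the cytosolic counterparts of the mitochondrial folate enzymes, Aldh1l1 was far more abundant per length than Aldh1l2 (0.841 CPM per kilobase in Control). Shmt1, the cytosolic hydroxymethyltransferase, had 37.1 CPM per kilobase in Control, below Shmt2, and a log2 fold change of -0.27 (SE 0.16, adjusted p = 0.534 by edgeR), which without Control library c was -0.38 at an unadjusted p under 0.05. Without Nnmt LKO library a or Control library a, the value for Shmt1 was -0.16. Aldh1l1, the cytosolic form of Aldh1l2, had 186 CPM per kilobase in Control and a log2 fold change of -0.15 (SE 0.25, adjusted p = 0.850 by edgeR). Its sign turned without Nnmt LKO library a (0.034) and without Control library b (0.070). Mthfd2l, a mitochondrial relative of Mthfd2, had 0.0956 CPM per kilobase in Control and a log2 fold change of 0.58 (SE 0.33, adjusted p = 0.505 by edgeR), which without Nnmt LKO library a was 0.74 at an unadjusted p under 0.05. Mthfd1, the cytosolic folate enzyme with 3 activities, had a log2 fold change of -0.10, and Mthfd1l, the mitochondrial formate-releasing synthetase, of 0.0030, with adjusted p of 0.801 and 0.997 by edgeR. With a library left out, that of Mthfd1 ran from -0.19 (without Control library c) to -0.015 (without Nnmt LKO library a).

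Counts of other genes of the same routes are set beside the shares of all tested genes that were lower (7.13%) or higher (5.45%) at an unadjusted p under 0.05. Both shares belong to the fit to all libraries, and counts with a library left out have no share beside them here. Among 19 further amino acid transporters, 16 were tested, 1 was lower (Slc1a4, a carrier of alanine, serine and cysteine) and 1 higher (Slc7a2, a carrier of arginine and lysine) at an unadjusted p under 0.05. Slc7a2 rose with a log2 fold change of 0.81 (SE 0.12, adjusted p = 0.0399 by edgeR) and without overlap of libraries, whereas Slc1a4 had -0.53 (SE 0.19, adjusted p = 0.271 by edgeR). With 1 library left out, the adjusted p of Slc7a2 was under 0.05 only without Nnmt LKO library a (0.0142). It reached 0.143 without Control library a, with log2 fold changes from 0.75 to 0.87. Without the filter on low counts its adjusted p by edgeR was 0.0669, but it was under 0.05 with the other scalings and with DESeq2. Slc1a4 missed the unadjusted level without Control library a (-0.47) and without Control library d (-0.40), and with scaling by library size only (-0.46). With a library left out, 0 to 2 of these transporters were lower and 1 or 2 higher. Among 14 further amino acid enzymes, 13 were tested, with 2 lower and 2 higher at that level. Got1, the cytosolic aspartate aminotransferase, had a log2 fold change of 1.11, against -0.83 for Pycr1, which makes proline, and -0.42 for Pck2, the mitochondrial PEP carboxykinase, named after its value was seen. Pck2 missed the unadjusted level without Nnmt LKO library b or d or Control library a, b or c (from -0.39 to -0.29), with library size only (-0.34) and without filter. Pycr1 missed the unadjusted level without Control library a (-0.75) and with scaling by library size only (-0.73). Without Nnmt LKO library a, Pycr1 was at -1.19 (adjusted p = 0.0421 by edgeR) and Got1 at 1.32 (adjusted p = 0.0482 by edgeR). With all libraries the adjusted p by edgeR was 0.272 for Pycr1 and 0.183 for Got1. With a library left out, the count of lower enzymes ran from 0 (without Control library a) to 3 (without Nnmt LKO library a).

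Enzymes that use serine and glycine numbered 18, of which 17 were tested, with 2 lower and 0 higher at an unadjusted p under 0.05, beside 7.13% and 5.45% of all tested genes. These were Glyctk, the glycerate kinase, at -0.49 (SE 0.12), and Amt, of the glycine cleavage system, at -0.55 (SE 0.14), with adjusted p of 0.107 and 0.120 by edgeR and 0.00488 and 0.0251 by DESeq2 (1.94% of all its tested genes were lower under 0.05). Without Control library c, 6 genes of this list were lower at an unadjusted p under 0.05. The share of all genes lower at that level in that fit was not determined, so this count cannot be set against it. Of 15 other folate genes, 2 were lower and 0 higher at that level, for which the shares are the same, among them Ftcd, which joins histidine breakdown to folate, at -0.46 (-0.37 without Control library a, where it missed that level). The cytosolic aminoacyl-tRNA synthetases, which load tRNAs and include further ATF4 targets, were all 20 at negative log2 fold changes (47.7% of all tested genes were), with a median of -0.14, and 4 of them passed an unadjusted p under 0.05, beside 7.13%. Those were Cars at -0.53, Yars at -0.48, Sars at -0.38 and Kars at -0.28, the last named after its value was seen. DESeq2 called 3 of them at an adjusted p under 0.05, all but Kars, beside the same 1.94%. Kars missed the unadjusted level without Nnmt LKO library a, b or d or Control library a or b (from -0.29 to -0.18) and with scaling by library size only (-0.22). Without Nnmt LKO library a, Dars, the aspartyl-tRNA synthetase gene, turned to 0.033.

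Regulators and other targets of the integrated stress response numbered 22, and at an unadjusted p under 0.05 there were 10 lower and 2 higher genes among them, beside 7.13% and 5.45% of all tested genes. The 2 higher were Eif2ak2, the gene of the eIF2α kinase PKR, at 0.73, and Vldlr, a lipoprotein receptor gene, at 0.52 (adjusted p of 0.211 and 0.350 by edgeR). Vldlr missed the unadjusted level with 5 of the 8 libraries left out in turn and with scaling by library size only. By edgeR, Trib3 alone (1 gene) passed an adjusted p under 0.05 (0.137% of all tested genes were lower), and DESeq2 called 7 lower and 0 higher (Trib3, Atf4, Chac1, Ddit3, Fgf21, Nupr1 and Atf5), beside 1.94% of its tested genes. Trib3, a pseudokinase gene that ATF4 induces, was at 31.0, 36.0, 34.8 and 19.1 CPM in Nnmt LKO libraries a to d and at 80.9, 74.0, 85.5 and 72.1 CPM in Control libraries a to d. It fell by 1.37 on the log2 scale (SE 0.18, adjusted p = 0.0188 by edgeR), with a wide gap between the groups. Its adjusted p was above 0.05 without Nnmt LKO library c (0.0543), Control library a (0.0967) or Control library c (0.0658), while the log2 fold change stayed between -1.47 and -1.21 with any 1 library left out. Transcripts of Atf4 itself, at 68.3, 80.0, 85.2 and 79.9 CPM in Nnmt LKO and 123, 122, 113 and 103 CPM in Control libraries a to d, did not overlap either and had a log2 fold change of -0.56 (SE 0.11, adjusted p = 0.0711 by edgeR). Nupr1, a small stress-induced nuclear protein gene, had -1.75 (SE 0.36, adjusted p = 0.0725 by edgeR). Library a of Nnmt LKO was below every Control library for Trib3, Atf4 and Nupr1, but it was the highest of its group for Nupr1 (-2.12 without it, adjusted p = 0.0195 by edgeR). Atf3, Chac1 and Fgf21 of this list were also highest of Nnmt LKO in library a. At 40.3 CPM for Atf3 and 24.3 CPM for Fgf21, library a was inside the range of Control, and the other 3 Nnmt LKO libraries were below that range. Genes of this list other than Trib3, Atf4 and Nupr1 are named after their values were seen.

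The 5 genes, of 12230 with a mean of at least 1 CPM, whose profile over 8 libraries was nearest to the members' average were Tcf19, Dsp, B9d2, Ugt1a7c and Inpp1. Their root mean square differences from it were 0.067, 0.094, 0.094, 0.10 and 0.11 on the log2 scale, against 0.18 for Slc3a2, the nearest of the 10 members, and 0.61 for Phgdh, the farthest. An average over 10 genes has small swings, and single genes near it need share nothing else with them.

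Promoter windows (250 bases before to 50 after each gene start, RefSeq GRCm38.p6) were found for 8 of the 10 members, 9 windows in all, and not for Aldh1l2 and Slc7a5. They were searched on both strands for TGATGNAA, the letters of the composite element that ATF4 and C/EBP dimers can bind. The element occurred for 1219 of all 27025 genes with a window (4.51%), for 2 of the 8 members (Asns and Slc7a11) and for 6 of 21 stress response genes with a window (Atf3, Chac1, Fgf21, Nupr1, Trib3 and Vldlr). The stretches of 30 bases around these matches are shown so that they can be compared, each 5′ to 3′ on the strand of its gene, with matches in capitals (TTNCATCA is the same element on the opposite strand).
Asns: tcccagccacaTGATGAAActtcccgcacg
Slc7a11: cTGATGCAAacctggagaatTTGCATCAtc
Atf3: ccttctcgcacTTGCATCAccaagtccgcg
Chac1: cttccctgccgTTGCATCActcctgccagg
Fgf21: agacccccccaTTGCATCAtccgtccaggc
Nupr1: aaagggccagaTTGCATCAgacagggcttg
Trib3: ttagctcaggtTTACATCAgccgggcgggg
Vldlr: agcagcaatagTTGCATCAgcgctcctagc

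The Asns stretch (chr6:7693214-7693243, minus strand) has its match 23 bases before the RefSeq start, inside an exon of the slightly longer gene in GENCODE M21. The Slc7a11 stretch (chr3:50443651-50443680, minus strand) holds matches on both strands, 66 and 47 bases before the start and outside the annotated gene. The others are from chr1:191183425-191183454 (Atf3, minus strand, in an intron of the longest gene model), chr2:119351038-119351067 (Chac1, plus strand, upstream), chr7:45615611-45615640 (Fgf21, minus strand, upstream), chr7:126625562-126625591 (Nupr1, minus strand, exonic), chr2:152344028-152344057 (Trib3, minus strand) and chr19:27216809-27216838 (Vldlr, plus strand, exonic). The Trib3 match begins at base 15 of the RefSeq transcript and lies upstream of the gene in GENCODE M21. With the match in their windows, Asns had an unadjusted p under 0.05 and Slc7a11 did not, while Psat1 and Slc3a2 had none in theirs. Of the 6 stress response genes with the match, Vldlr had a positive log2 fold change and the other 5 negative ones. A match shows only that the letters occur there, and binding was not measured.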

How the data were processed

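Liver RNA-seq counts per gene were deposited by the authors as whole numbers without normalization, 33212 genes in 8 columns, all of them used (0 columns left out). The submitters' processing notes name HISAT2, StringTie and mm10, and counts made with StringTie are usually derived from coverage. The annotation, strand setting and versions are not given in the sources used here. The paper names a KAPA HyperPrep kit and the labels NEBNext Ultra. Counts were filtered with filterByExpr (minimum count 10), scaled by TMM and tested with edgeR 4.0.16 in R 4.3.3, with genotype as the sole term, and p-values were adjusted over 15291 genes. Libraries of a group were not copies of each other (chi-square per degree of freedom 39.9 to 248). The p-values measure the spread between 4 libraries per group.

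At these depths 3 counts equal 0.0341 to 0.04 CPM of the library total, before TMM scaling. Positions and exon lengths came from GENCODE M21 of GRCm38, and lengths take the union of exons.

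The members and lists were chosen with earlier results of these data known. Named genes are the members, Nnmt, up to 3 genes of smallest unadjusted p (under 0.05) per pathway list, partners of members, the most abundant and absent markers, and the 5 nearest profiles; further genes were picked once values were known. Some genes that meet this are not reported here. Alternatives were RLE size factors, library size only, DESeq2 1.42.0, no filter, and each library left out; DESeq2 without Nnmt LKO library a, and all alternatives for single genes other than the members and Nnmt, were added after seeing the data.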

Additional observations from a re-analysis of the deposited data

Results flagged for a closer look

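In 3 of 42 sets of 4 libraries, 1 library lay far from the other 3, by the ratio of its gap to the whole range. All 3 sets were of Nnmt LKO, and each time the library was a. Chance alone marks about 1 in 20 sets, and the sets share libraries. The TMM factor of Nnmt LKO gave a ratio of 0.902, with library a at 1.21 and the others between 0.952 and 0.977. The summed macrophage markers gave 0.925, with 1302 CPM in library a and 759 to 800 CPM in the others. The summed stellate cell markers gave 0.888, with 976 CPM in library a and 501 to 554 CPM in the others. None of the 10 ATF4 target genes described here, in either group, had a library that far from the other 3.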

How the results depend on the processing

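The log2 fold changes of the 10 genes kept their sign under all 13 alternatives each. Of those 130 values, 116 stayed on the same side of an unadjusted p of 0.05 and 14 came under it (for Phgdh, Shmt2, Mthfd2, Aldh1l2 and Slc7a11). Nnmt had a log2 fold change of -1.52 to -0.94 under 12 alternatives, each with an unadjusted p under 0.05. The median over the 10 genes was -0.61 to -0.33 with a library left out.

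The count of the 10 genes lower at an adjusted p under 0.05 was 0 with edgeR for all scalings, without filter and with any library left out, 2 with DESeq2, and 5 with DESeq2 and without Nnmt LKO library a, chosen after seeing the data. The count at an unadjusted p under 0.05 was 3 with edgeR, with RLE and without filter, 4 with library size only, 5 with DESeq2, 6 with DESeq2 without that library, and 3 to 6 with a library left out (6 without Nnmt LKO library a, 5 without Control library d). The count without overlap was 2, and 2 to 5 with a library left out (5 without Nnmt LKO library a, 4 without Nnmt LKO library b). Over the 6 other pathway lists, with 103 genes tested, 21 were lower and 5 higher at an unadjusted p under 0.05, beside 7.13% and 5.45% of all tested genes. With a library left out, 13 to 23 were lower (13 without Control library a) and 4 to 7 higher. Without Nnmt LKO library a, 21 were lower and 6 higher, beside 7.42% and 5.84% of all genes tested in that fit. For the other fits with a library left out, shares of all genes at this level were not determined. The causes of these differences were not tested.

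With a library left out, log2 fold changes of 5 partner genes crossed 0, from -0.29 to 0.070 for Aldh1l1, from -0.19 to 0.19 for Mthfd1l, from -0.52 to 0.30 for Slc7a6, from -0.029 to 0.41 for Slc7a7 and from -0.22 to 0.33 for Slc7a8. That of Dars crossed 0 as well, from -0.16 to 0.033 (the latter without Nnmt LKO library a).

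Over all genes, edgeR called 49 at an adjusted p under 0.05 (28 higher), 22 with library size only (19 higher), 30 with RLE, 8 without filter, 6 to 149 with a library left out, and DESeq2 478 (200 higher). No scaling moved the median of all genes by over 0.1 on the log2 scale. No paired analysis was possible because the columns carry no mouse numbers. Genes near 1 CPM, such as Phgdh, rest on the fewest counts.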
